A study of Saccharomyces cerevisiae with 44 samples.

Results

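The 9 genes described here encode the budding yeast replicative helicase core and the factors that load and start it: MCM2, MCM3, MCM4, MCM5, MCM6, MCM7, CDC6, TAH11 and MCM10. They were taken by systematic name from the 6692 features of the deposited count tables, and all 9 were among the 6344 features that passed the filter on low counts.

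RNA sequencing was done on wild-type Saccharomyces cerevisiae of the W303 background, a common laboratory strain, in unsynchronised cultures grown at 30 °C. Each agent or its vehicle was added at an optical density of about 0.3, and cells were harvested at a time set by the IC50, which the labels do not give as a number. The labels name the agents by abbreviation, and HU, MMS, CPT, DOX and MTX are in common use for hydroxyurea, methyl methanesulfonate, camptothecin, doxorubicin and methotrexate, while AD is kept here as written. In YEPD, a rich medium, water (C0) was the vehicle of 50 mM HU and of 0.002% MMS, and 1 N NaOH (CC) was the vehicle of 100 µg/mL CPT. In SC, a synthetic medium, 2% acetone (CA) was the vehicle of 50 µg/mL AD, water (CD) that of 25 µg/mL DOX, and 0.1 N NaOH (CM) that of 150 µg/mL MTX. Each of the 11 groups had 2 independent cultures with 2 technical replicate libraries each, and the 44 libraries held 6.82 to 15.08 M counts. DOX libraries were shallower (8.07 to 8.91 M) than those of CD (10.79 to 12.9 M). Values below are CPM, read counts scaled to library size by TMM factors, per culture with its 2 libraries summed, so n = 2 cultures in every group.

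Origins are licensed when the origin recognition complex, Cdc6 and Cdt1 (the product of TAH11) load Mcm2-7 rings onto DNA as inactive double hexamers, in late mitosis and G1. Kinases, Cdc45 and GINS later turn each ring into a moving helicase, and Mcm10 is needed for the loaded pair to separate and unwind the origin. In budding yeast, transcripts of CDC6 and of several MCM genes peak around the M to G1 boundary, through promoter elements called early cell cycle boxes that bind Mcm1, a transcription factor that is no part of the helicase, and its repressors Yox1 and Yhp1. In an unsynchronised culture, fewer cells in the phase that makes a transcript and less transcript per cell cannot be told apart.

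The stretches below show the matches to the early cell cycle box, for those of the 9 genes that have one. The 300 bases before each start codon were read from the RefSeq R64 genome, whose coordinates for all 9 genes equal the deposited sacCer3 ones. Both strands were searched for 3 motifs: the box form, which is TTNCC and GGNAA with 6 bases between them, the SBF-type form CNCGAAA and the MBF-type form ACGCGT. A box match was present upstream of 5 of the 9 genes and in 69 of 6001 yeast upstream regions of the same length (1.15%). Capitals mark the box matches, and each stretch reads 5′ to 3′ on the strand of its gene, with MCM6 on the minus strand and the others on the plus strand.
MCM3 (chrV:86732-86787): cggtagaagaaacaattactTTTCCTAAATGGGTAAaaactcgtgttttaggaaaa
MCM5 (chrXII:691381-691436): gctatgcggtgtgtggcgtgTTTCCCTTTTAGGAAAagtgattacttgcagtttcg
MCM6 (chrVII:121050-121105): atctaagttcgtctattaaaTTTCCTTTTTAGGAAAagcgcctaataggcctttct
MCM7 (chrII:625523-625594): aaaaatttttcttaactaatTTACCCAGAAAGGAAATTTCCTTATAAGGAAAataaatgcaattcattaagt
CDC6 (chrX:69125-69196): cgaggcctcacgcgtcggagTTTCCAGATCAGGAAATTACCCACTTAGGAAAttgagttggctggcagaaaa

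MCM7 and CDC6 each carry 2 box matches that abut each other, and MCM3, MCM5 and MCM6 carry 1. All of them lie between 229 and 139 bases before the start codon. The SBF-type form was found upstream of 5 genes, MCM2, MCM3, MCM4, MCM5 and MCM7, and in 14.6% of all upstream regions. The MBF-type form was found upstream of CDC6 alone among the 9 genes and in 3.48% of all regions. No box match overlapped a match of another motif. None of the 3 letter patterns lies in the windows of TAH11 and MCM10. These matches describe letters in a window and not sites shown to be bound.

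**Figure D1:**
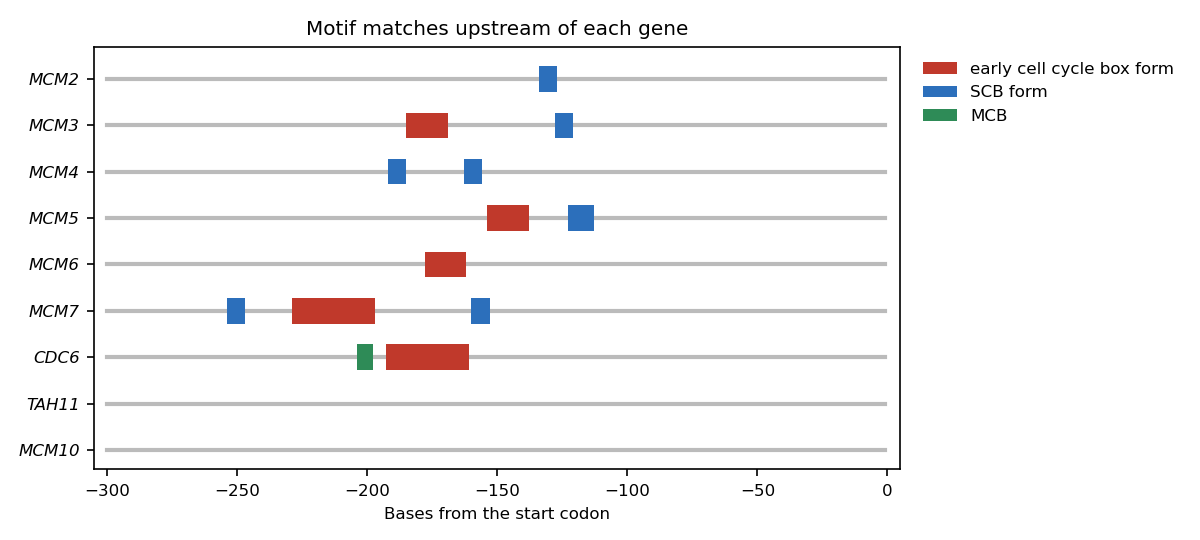
Positions of motif matches in the 300 bases before each start codon, 1 row per gene; the x axis is distance from the start codon in bases, and colours mark the early cell cycle box form, the SBF-type form and the MBF-type form. The box matches of MCM3, MCM5, MCM6, MCM7 and CDC6 all lie 139 to 229 bases before the start codon, and TAH11 and MCM10 have no match.

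The ring subunit genes were transcribed at moderate levels, and 2 of the other 3 genes were low. Per kilobase, which allows genes to be compared, the median level over the 22 cultures was 141 CPM per kb for MCM5 (YLR274W, chromosome XII, 691555 to 693882), 135 for MCM2 (YBL023C, chromosome II, 174920 to 177526) and 125 for MCM3 (YEL032W, chromosome V, 86937 to 89852). It was 96.7 CPM per kb for MCM6 (YGL201C, chromosome VII, 117854 to 120907), 80.6 for MCM7 (YBR202W, chromosome II, 625772 to 628309) and 50.0 for MCM4 (YPR019W, chromosome XVI, 596750 to 599551). TAH11 (YJR046W, chromosome X, 522048 to 523862) was at 112 CPM per kb, within the range of the ring genes. CDC6 (YJL194W, chromosome X, 69338 to 70879) and MCM10 (YIL150C, chromosome IX, 61013 to 62728) were at 16.3 and 17.0 CPM per kb. All are coding regions, as the deposited tables give them. Over a stretch of 605 bases, 39.2% of its length, CDC6 overlaps YJL195C, where reads that touch both features were not counted, so its values are uncertain; for MCM3 the shared stretch is 162 bases.

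MCM2 and MCM4 moved least across the 11 groups. The highest group mean of MCM4 was 1.35 times the lowest and that of MCM2 was 1.45 times, and in the order of the group means the cultures of all neighbouring groups overlapped for both genes. The ratio of highest to lowest group mean was 1.5 for MCM5, 1.62 for MCM6, 1.73 for MCM10, 1.90 for MCM3 and 2.37 for MCM7. The loader genes moved most, at 3.40 for CDC6 and 3.58 for TAH11. MCM3, MCM7, CDC6 and MCM10 all had their lowest mean in DOX, whereas MCM6 had its highest there. TAH11 and MCM6 had their lowest mean in MTX. In MCM7 and MCM10 the cultures of DOX lay below those of the next group in the order (AD and HU), and in TAH11 and MCM3 the cultures of MTX lay below those of CPT.

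**Figure D2:**
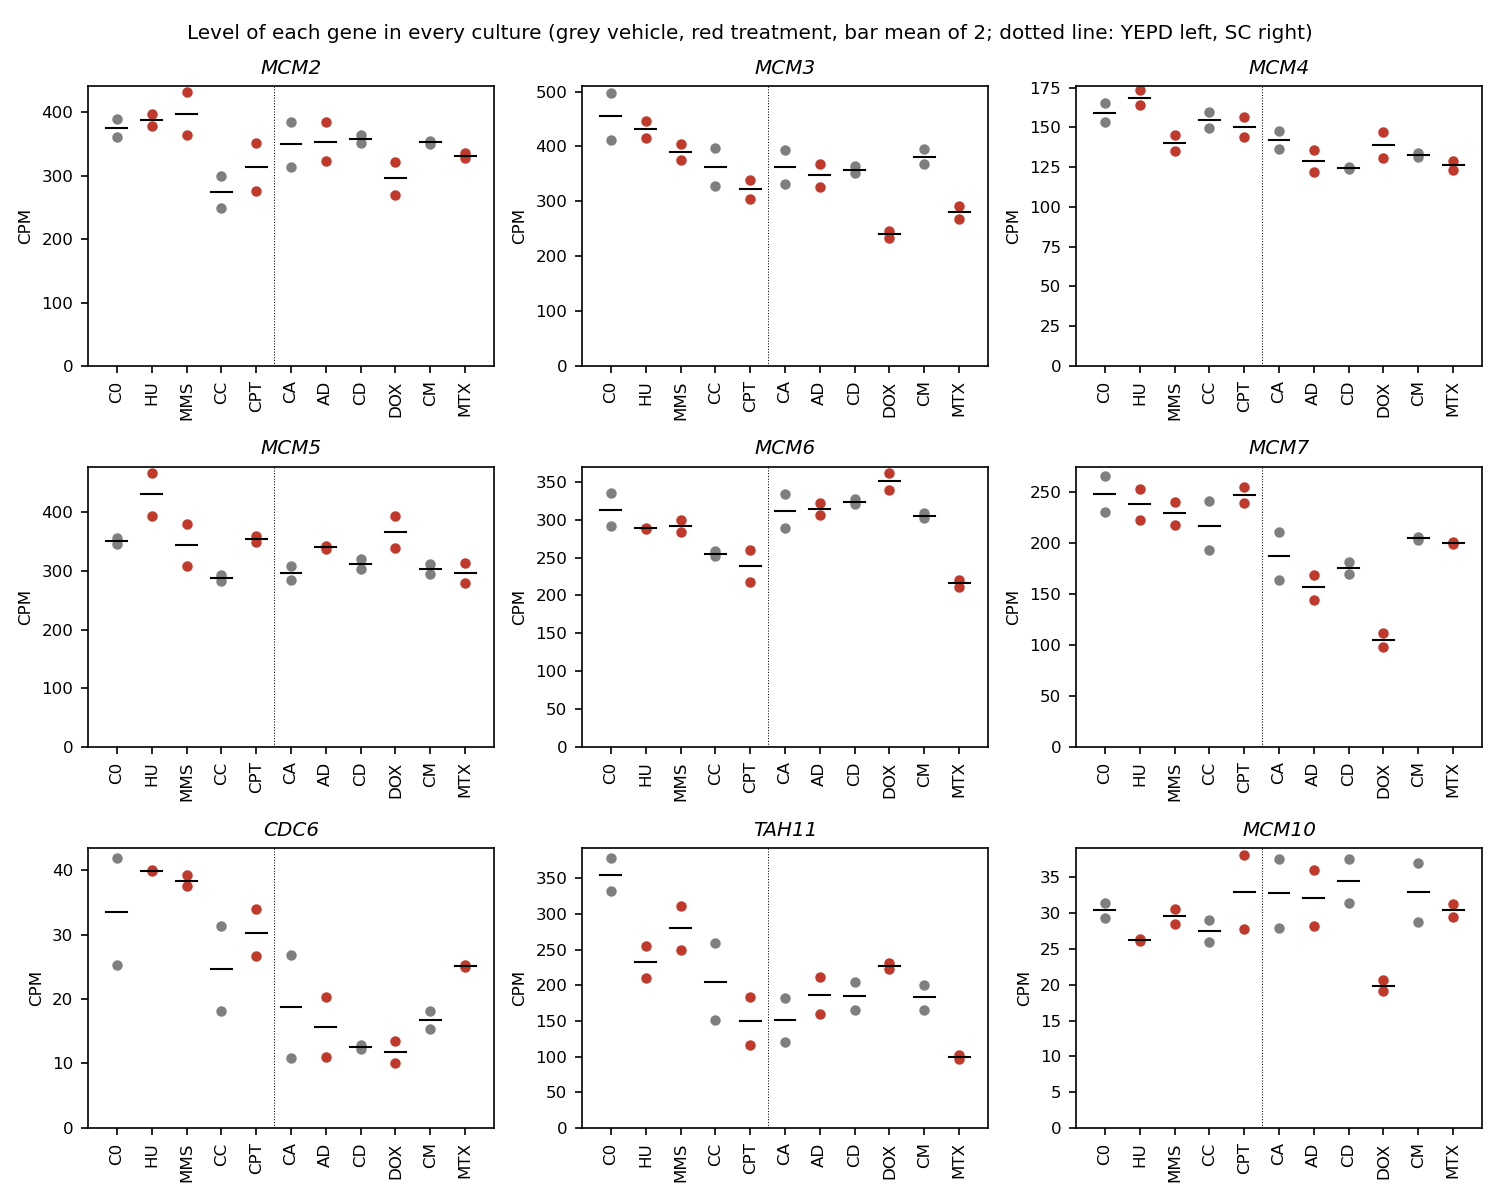
Level of each of the 9 genes in every culture, 1 panel per gene; the y axis is CPM from 0, grey points are vehicle cultures, red points treated cultures, bars the mean of 2 cultures, and the dotted line parts YEPD groups from SC groups. MCM7, MCM3 and MCM10 are lowest in DOX, MCM6 and TAH11 have their lowest mean in MTX, and TAH11 is highest in C0.

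DOX, an anthracycline that intercalates into DNA, gave the lowest MCM7, MCM3 and MCM10 transcripts of the study, while the other 6 genes were not called. MCM7, a ring subunit, was at 181 and 169.7 CPM in the CD cultures and at 112 and 98.0 CPM in the DOX cultures. Both DOX cultures lay below both CD cultures, and the log2 fold change was -0.74 (SE 0.15; edgeR adjusted p = 0.000917). MCM3, the ring subunit through which the hexamer is first recruited to the origin, was at 364 and 351 CPM in CD and at 247 and 233 CPM in DOX. It fell by 0.58 on the log2 scale (SE 0.13; edgeR adjusted p = 0.00243), again without overlap of the cultures. MCM10 was at 31.4 and 37.6 CPM in CD and at 19.1 and 20.7 CPM in DOX, from only 103 to 199 counts per DOX library. It fell by 0.79 (SE 0.19; edgeR adjusted p = 0.00394).

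The remaining ring genes were not called in DOX. MCM6 was at 327 and 321 CPM in CD and at 362 and 339 CPM in DOX, a log2 difference of 0.11 with a 95% interval of -0.13 to 0.35. MCM5 was at 0.24 (interval -0.02 to 0.50), MCM4 at 0.16 and MCM2 at -0.27, none of them past the threshold. Both DOX cultures of MCM2, at 322 and 270.2 CPM, lay below both CD cultures, at 364 and 351 CPM. TAH11 was at 205 and 165 CPM in CD and at 223 and 231 CPM in DOX, an uncalled difference of 0.30 (interval -0.25 to 0.85). CDC6 was at 12.9 and 12.3 CPM in CD and at 13.4 and 10.1 CPM in DOX, and its interval of -0.91 to 0.71 leaves changes in either direction possible. DOX moved much of the transcriptome, and 41.2% of the 6344 genes tested were called (20.2% lower). The 3 of 9 called here are thus no larger a share than that of all genes, and the cultures of the groups did not overlap for 8 of the 9 genes against 79.9% of all genes. The median log2 fold change of the 9 genes was -0.10, beside -0.02 over all genes tested.

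MTX, an inhibitor of dihydrofolate reductase, went with lower MCM6, MCM3 and TAH11. MCM6 was at 309 and 302 CPM in CM and at 211 and 221 CPM in MTX, and MTX had the lowest group mean of this ring subunit. It fell by 0.50 on the log2 scale (SE 0.11; edgeR adjusted p = 0.00581). TAH11, which encodes the Cdt1 loader that travels with the ring, was at 201 and 166 CPM in CM and at 102 and 96.7 CPM in MTX. It fell by 0.89 (SE 0.26; edgeR adjusted p = 0.0259), the largest fall among the 9 genes in the 6 treatments. MCM3 was at 368 and 396 CPM in CM and at 292 and 268 CPM in MTX. It fell by 0.45 (SE 0.13; edgeR adjusted p = 0.0236), and as with MCM6 and TAH11 no MTX culture reached a CM culture.

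MCM7 was at 206 and 203 CPM in CM and at 199 and 201 CPM in MTX, so that the gene with a marked fall in DOX differed little here (log2 difference -0.03, interval -0.34 to 0.27). MCM2, MCM4, MCM5 and MCM10 lay between -0.12 and -0.03 on the log2 scale and were not called. CDC6 was at 15.3 and 18.1 CPM in CM and at 24.9 and 25.3 CPM in MTX, an uncalled log2 difference of 0.59 (SE 0.37), which was called when the 2 groups were fitted alone. Of all genes, 19.8% were called in MTX (9% lower), beside 3 of 9 here, and the medians were -0.09 and -0.03. The cultures did not overlap for 7 of the 9 genes and 68.4% of all genes. Without either culture of CM or of MTX, MCM3 and TAH11 were no longer called, and 0 or 1 of the 9 genes passed. MCM6 was lost without CM culture 1 or MTX culture 1. MCM3 was also lost without the second library of CM culture 2 (lowest and highest adjusted p over its alternatives 0.00214 and 0.182).

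**Figure D3:**
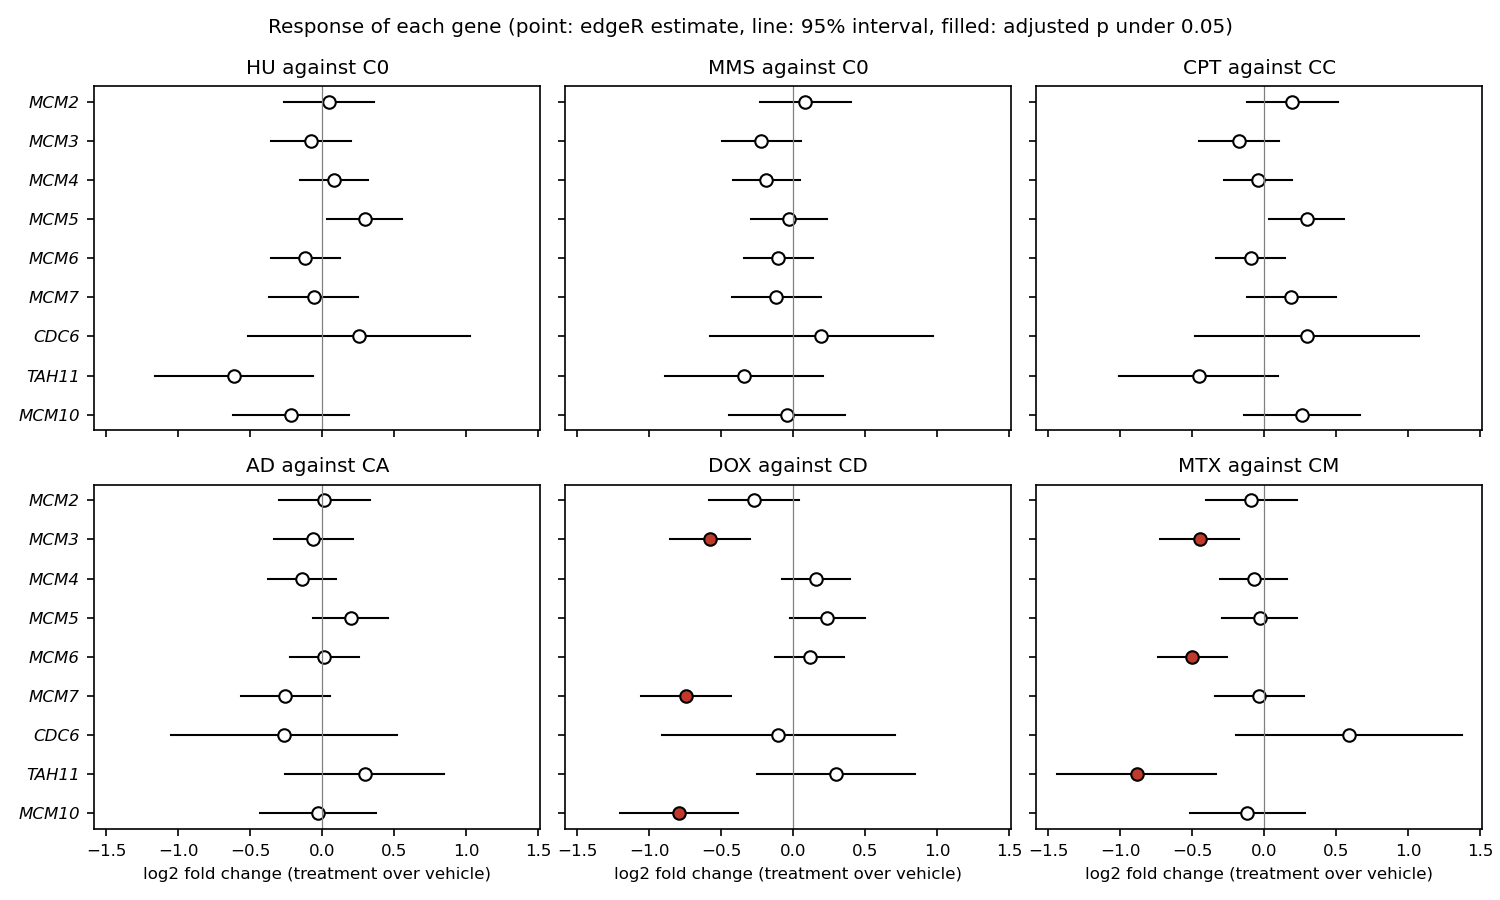
Log2 fold change of each gene in each treatment against its own vehicle, 1 panel per treatment; points are edgeR estimates, lines 95% intervals, and filled points have an adjusted p under 0.05. Filled points are MCM3, MCM7 and MCM10 in DOX and MCM3, MCM6 and TAH11 in MTX, all lower, and there is none in HU, MMS, CPT or AD.

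In HU, a ribonucleotide reductase inhibitor that stalls forks, none of the 9 genes was called by edgeR or by DESeq2, while 3.56% of all genes were called by edgeR. At an unadjusted p under 0.05 there were 2, beside 1018 of the 6344 genes tested. TAH11 was at 331 and 378 CPM in C0 and at 209.7 and 255 CPM in HU, a log2 difference of -0.61 (interval -1.16 to -0.06). MCM5 was at 356 and 346 CPM in C0 and at 395 and 468 CPM in HU, a difference of 0.30 (interval 0.04 to 0.56). The HU cultures of both genes lay outside the range of the C0 cultures, as they did for 4 of the 9 genes and 46.1% of all genes. The other ring genes lay between -0.12 and 0.08, and CDC6 was at 25.3 and 41.9 CPM in C0 and at 40.0 and 39.9 CPM in HU.

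MMS, a DNA alkylating agent, gave no call among the 9 genes by edgeR or DESeq2, where edgeR called 10.8% of all genes. None of the 9 had an unadjusted p under 0.05, beside 1562 of the 6344 genes tested. The 6 ring genes lay between -0.22 and 0.08, with intervals that together spanned -0.50 to 0.40. TAH11 was at 311 and 250.0 CPM in MMS, a log2 difference of -0.34 from C0 (interval -0.89 to 0.21). The MMS and C0 cultures did not overlap for 3 of the 9 genes, beside 53.7% of all genes.

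CPT, a topoisomerase I poison, likewise gave no call by edgeR or DESeq2, beside 2.81% of all genes. At an unadjusted p under 0.05 there was 1, MCM5, beside 985 of the 6344 genes tested. MCM5 was at 283 and 293 CPM in CC and at 359 and 349 CPM in CPT (log2 difference 0.30, interval 0.04 to 0.56). TAH11 was at 259 and 152 CPM in CC and at 183 and 116 CPM in CPT, so the cultures overlapped (log2 difference -0.46, interval -1.01 to 0.10). MCM5 was the 1 gene of the 9 whose CPT and CC cultures did not overlap, beside 37.3% of all genes. In AD, none of the 9 genes was called by edgeR or DESeq2, beside 3.14% of all genes called by edgeR. None had an unadjusted p under 0.05, beside 1240 of the 6344 genes tested. The cultures did not overlap for 2 of the 9 genes and 41.9% of all genes. MCM7 was at 164 and 211 CPM in CA and at 144 and 169 CPM in AD (log2 difference -0.26, interval -0.57 to 0.05), and the ring genes as a whole lay between -0.26 and 0.20. CDC6 was too variable between the CA cultures, at 10.8 and 26.8 CPM, for a change to be measured well (interval -1.05 to 0.52).

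Whether the responses differ from each other was tested directly. A test of any difference among the 6 responses called MCM7 (edgeR adjusted p = 0.0375) and 24.8% of all genes. Among 6 pairs of responses within a medium, DOX and MTX differed for 3 of the 9 genes, beside 21.3% of all genes. The MCM6 response was higher in DOX than in MTX by 0.61 (SE 0.16; edgeR adjusted p = 0.0123). The MCM7 response was lower in DOX, with a difference of -0.71 (SE 0.21; edgeR adjusted p = 0.0223). The TAH11 response was higher in DOX by 1.18 (SE 0.37; edgeR adjusted p = 0.0315). MCM3 fell in both, and its difference of -0.13 had an interval of -0.52 to 0.26. MCM10, called in DOX but not in MTX, differed by -0.68 (SE 0.27; edgeR adjusted p = 0.0846) and did not pass. The MCM6 difference lost its call without CD culture 2, DOX culture 1 or CM culture 1. The MCM7 difference lost it without CD culture 1, DOX culture 2 or any 1 culture of CM or MTX, and the TAH11 difference without CD culture 2, CM culture 1 or any 1 culture of DOX or MTX. All 3 kept their direction in all 14 alternatives.

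The other 5 pairs gave no call among the 9 genes by edgeR. Between AD and MTX the MCM6 and TAH11 responses lay 0.51 and 1.18 apart, uncalled at edgeR adjusted p = 0.0578 and 0.0586. DESeq2 called both, and it called 795 of all genes. Between AD and DOX, MCM3, MCM7 and MCM10 had an unadjusted p under 0.05, as did 1409 of the 6344 genes tested. DESeq2 called none of the 9. The share of all genes called by edgeR was 8.29% for AD against MTX and 5.28% for AD against DOX. Between HU and MMS, MCM4 and MCM5 had an unadjusted p under 0.05, as did 1194 of the 6344 genes tested. DESeq2 called none of the 9, and edgeR called 4.52% of all genes. These responses share the C0 cultures. HU against CPT and MMS against CPT had none of the 9 genes at an unadjusted p under 0.05 and none by DESeq2. Of all genes, 2.14% were called for MMS against CPT, where 725 had an unadjusted p under 0.05. For HU against CPT 0% were called, where 151 had an unadjusted p under 0.05 and DESeq2 called 3.

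The shares of MCM7 and MCM3 in the pool of ring transcripts were lowest in DOX, and that of MCM5 was highest there. The share of MCM6 was higher in DOX than in CD and lower in MTX than in CM. Summed over MCM2 to MCM7, the pool ranged from 1411 to 2017 CPM over the 22 cultures (median 1670), with means of 1651 CPM in CD, 1497 in DOX, 1681 in CM and 1451 in MTX. Per kilobase, MCM7 made up 11.4% and 11.1% of the pool in the CD cultures and 7.43% and 7.34% in the DOX cultures. MCM6 made up 17.1% and 17.4% in CD and 20.01% and 21.1% in DOX. The ratio of MCM6 to MCM7, in CPM per kb, was 1.5 and 1.57 in CD and 2.69 and 2.88 in DOX, the highest values of any culture. In MTX it was 0.882 and 0.915, against 1.25 and 1.23 in CM. The lowest ratio was 0.758, in a CPT culture. The proteins form a ring with 1 copy of each subunit, and protein was not measured. The ratio itself was not tested.

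**Figure D4:**
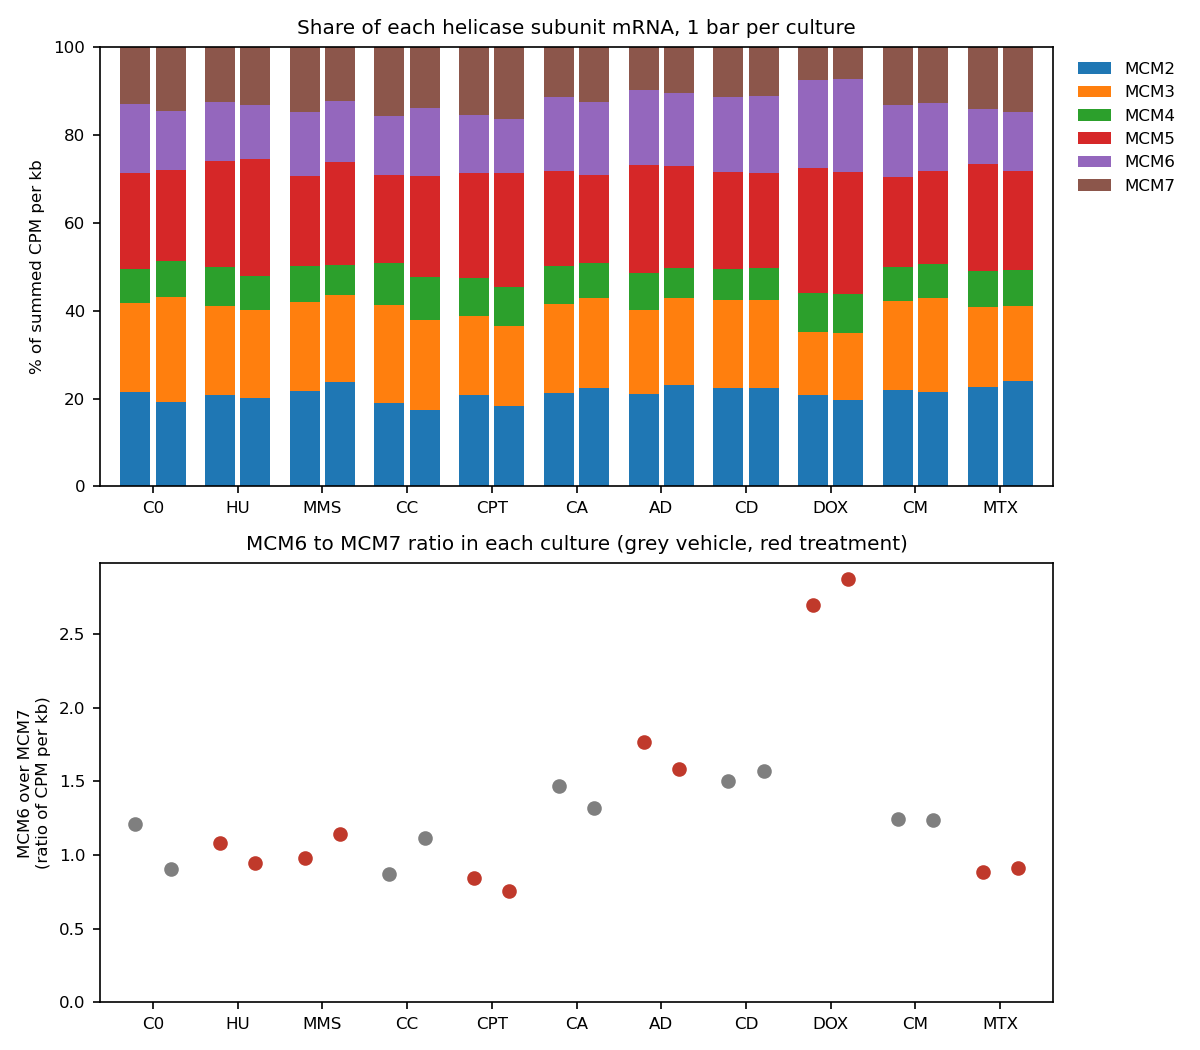
Upper panel, share of each ring subunit transcript in the summed CPM per kb of MCM2 to MCM7, 1 bar per culture from 0 to 100%; lower panel, ratio of MCM6 to MCM7 in CPM per kb in each culture, grey for vehicle and red for treatment. The 2 DOX cultures stand at 2.69 and 2.88 and the MTX cultures at 0.882 and 0.915.

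Levels of the loader genes also differed between the water vehicles of the 2 media. Among water vehicles, 4 of the 9 genes were higher in YEPD (C0) than in SC (CD), and none was lower, where 20.1% of all genes were called and 11.2% were higher. CDC6 was at 25.3 and 41.9 CPM in C0 and at 12.9 and 12.3 CPM in CD, a log2 difference of 1.41 (SE 0.38; edgeR adjusted p = 0.0175). TAH11 was at 331 and 378 CPM in C0 and at 205 and 165 CPM in CD (0.94, SE 0.26; edgeR adjusted p = 0.0207). MCM7 was higher by 0.50 (SE 0.15; edgeR adjusted p = 0.0255) and MCM4 by 0.35 (SE 0.11; edgeR adjusted p = 0.0354). The cultures of the media did not overlap for these 4 genes and 2 others, beside 68.1% of all genes.

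MCM2, MCM3, MCM5, MCM6 and MCM10 were not called between the media, with MCM3 at 0.35 (SE 0.13; edgeR adjusted p = 0.0689). The median of the 9 genes was 0.35, beside 0.02 over all genes. Medium and anything else that differed between these experiments cannot be told apart. The NaOH vehicle in YEPD, CC, had CDC6 at 31.3 and 18.1 CPM and TAH11 at 259 and 152 CPM. TAH11 in 1 CC culture was thus below both CD cultures. Mean levels of MCM2 and MCM6 were lower in CC (274 and 255 CPM) than in CD (358 and 324 CPM). Those of MCM4 and MCM7 were higher in CC (155 and 217 CPM) than in CD (125 and 175 CPM). CC was not tested against CD. Without C0 culture 2, or without either CD culture, MCM4, MCM7, CDC6 and TAH11 all lost the call, and 0 to 5 of the 9 genes were called when 1 culture was left out.

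Of 22 further genes of origin recognition, firing and fork protection, 3 rose and 5 fell in DOX, a share near the 41.2% of all genes called there. The subunits of the origin recognition complex ORC1 (-1.02, SE 0.18) and ORC2 (-0.64, SE 0.18) fell, while ORC4 rose (0.71, SE 0.16). The firing factor genes SLD7 (-0.79) and DPB11 (-0.39) fell, and the fork protection genes TOF1 (0.63) and CTF4 (0.42) rose. The origin recognition list had a median log2 fold change of -0.08 with 1 of 7 higher and 3 lower. In MTX, 3 of the 22 genes rose and none fell, beside 19.8% of all genes called. They were CDC45, whose product joins the Mcm2-7 ring in the active helicase (0.90, SE 0.20; edgeR adjusted p = 0.00525), MRC1 (0.60) and CTF4 (0.42).

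CDC45 rose as well in the treatments in which none of the 9 genes was called, other than AD. It was at 133 CPM in HU against 68.0 in C0 (0.97, SE 0.20), at 109 CPM in MMS (0.68, SE 0.20), and at 132 CPM in CPT against 67.1 in CC (0.97, SE 0.20). HU and MMS share the C0 cultures. The counts of the 22 genes were 2 higher in HU (3.56% of all genes called) and 3 higher and 1 lower in MMS (10.8%). In CPT 1 was higher (2.81%), and in AD there were 0 (3.14%). Between C0 and CD, 3 were higher in C0 (ORC3, ORC5 and SLD5) and 1, CSM3, was lower. That share is near the 20.1% of all genes called there.

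Among 8 regulators of MCM gene transcription, MCM1, whose product binds the early cell cycle box, fell in DOX from 39.4 to 13.0 CPM (-1.60, SE 0.25; edgeR adjusted p = 0.000118). It was the only one of the 8 called there, beside 41.2% of all genes. Of the 5 genes with a box match, MCM3 and MCM7 fell in DOX, while MCM5 at 0.24, MCM6 at 0.11 and CDC6 at -0.10 were not called. MCM10, which has no box match, fell. MCM1 was also the only one of the 8 called between C0 and CD, beside 20.1% of all genes. It was lower in C0, at 22.8 CPM against 39.4 CPM in CD. Of the genes called higher in C0 there, CDC6 and MCM7 have a box match and MCM4 and TAH11 have none. The part of MCM1 in these values was not tested. NDD1, an activator of G2-M genes, rose in MTX (0.90, SE 0.20) and in MMS (1.03, SE 0.20), and YOX1, a repressor at the box, rose in MMS (0.82, SE 0.23).

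Genes that mark cell cycle stages were followed in the same treatments. In DOX, where 41.2% of all genes were called and 20.2% were lower, 12 of 16 M-G1 genes fell and none rose (median -0.69), among them EGT2 (-1.72) and SCW11 (-1.88), all 8 core histone genes fell (median -1.01), 6 of 22 G1-S genes rose and 1 fell (median 0.25), and 5 of 13 G2-M genes rose and 2, CLB1 and CLB2, fell. The share of G1-S genes called was thus no larger than that of all genes. In MTX, where 19.8% of all genes were called and 9% were lower, 9 of 16 M-G1 genes fell (median -0.80), 8 of 22 G1-S genes rose and 1 fell (median 0.49), and 3 of 8 core histone genes fell (median -0.41). M-G1 genes fell too where none of the 9 genes was called. The counts were 10 of 16 in CPT (median -1.27) and 7 in HU (median -0.63), beside 2.81% and 3.56% of all genes called. In MMS 4 fell and 1, CLN3, rose (0.97), beside 10.8%, and in AD 2 fell, beside 3.14%. SWI4 and CLN3 of this list lay above 0, uncalled, in HU (0.75 and 0.55) and in CPT (0.31 and 0.59). SWI4 was also uncalled in MMS (0.50), and in AD the 2 genes were uncalled at 0.19 and -0.34. G1-S genes rose in these 4 treatments as well, and none fell. The counts were 6 of 22 in HU (median 0.47), 6 in MMS (0.41), 4 in CPT (0.35) and 2 in AD (0.14). Of the 8 core histone genes, 5 fell in CPT (median -0.72), 1 in HU (-0.34), 1 in MMS (-0.11) and 0 in AD (-0.16). In CPT the ring genes lay between -0.17 and 0.30. The part of cell cycle position in the changes of the 9 genes was not tested.

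**Figure D5:**
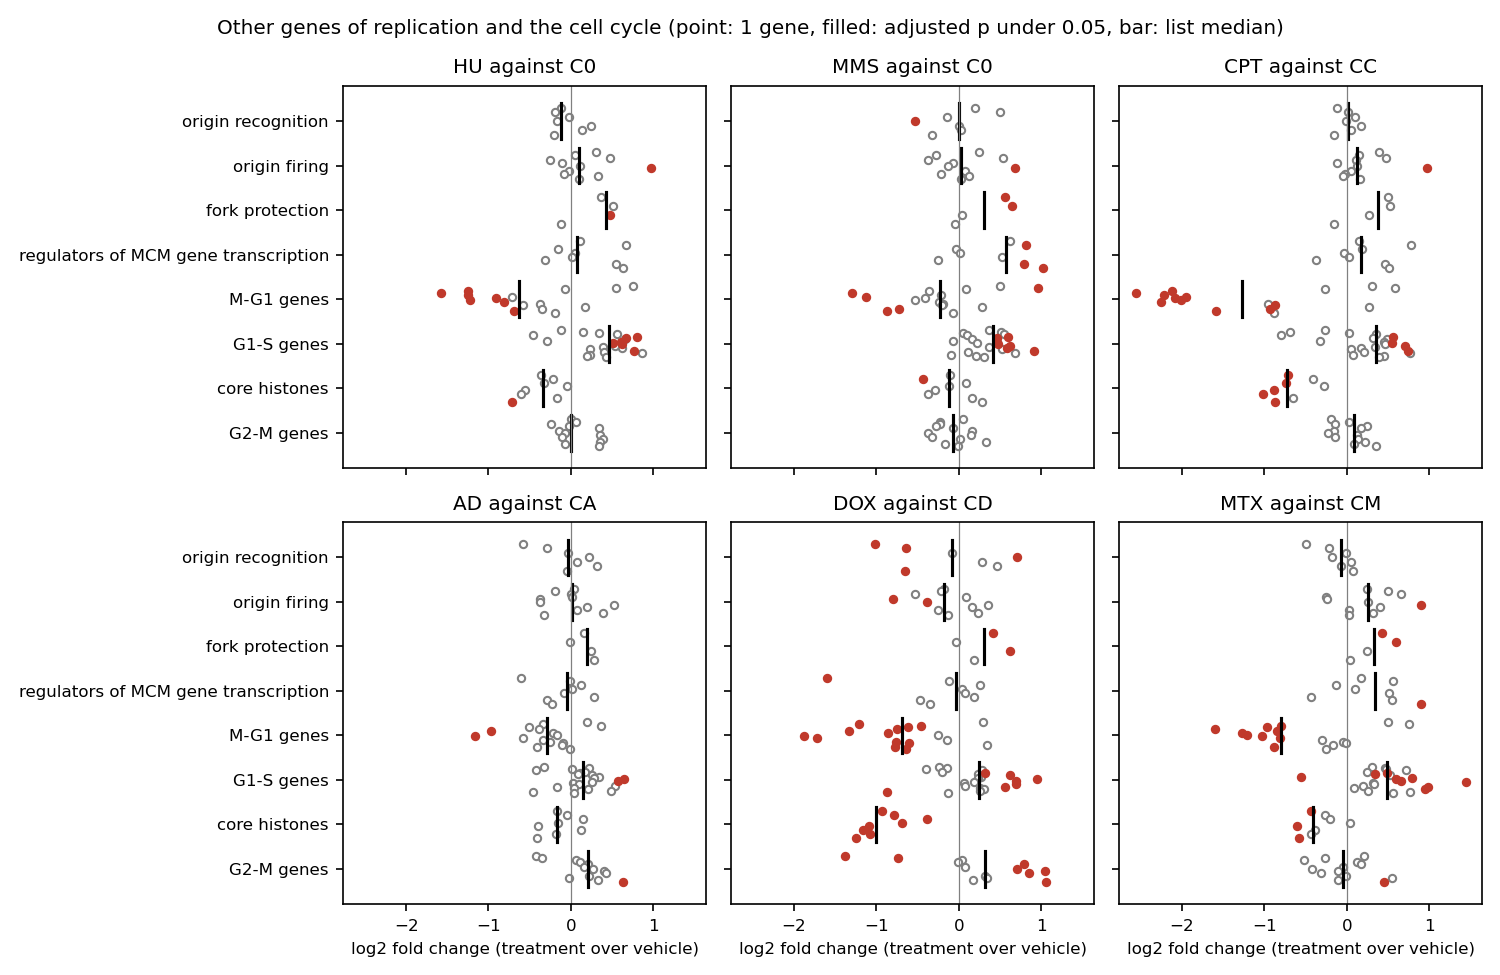
Log2 fold changes of the other replication and cell cycle genes, 1 panel per treatment and 1 row per list; each point is 1 gene, filled where the edgeR adjusted p is under 0.05, and vertical bars are list medians. The median of the M-G1 genes is below 0 in all 6 treatments, from -0.23 in MMS to -1.27 in CPT.

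The authors' deposited tables of comparisons, made with DESeq2, hold more calls for these genes. At an adjusted p under 0.05 the authors' deposited table has 6 of the 9 genes in DOX (59.7% of its genes), where MCM2 is at -0.27, MCM5 at 0.25 and TAH11 at 0.31 beside the 3 genes called here. The authors' deposited table for MTX has 4 (38.4% of its genes), with CDC6 at 0.62 in addition to the 3 genes called here. In HU the authors' deposited table has MCM5 (0.31) and TAH11 (-0.60) against 17.2% of its genes, in MMS TAH11 (-0.33) against 30.4%, in CPT MCM5 (0.30) against 11.5%, and in AD none against 18.3%.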

How the data were processed

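The authors deposited whole-number counts per annotated feature for each of 44 libraries, made with featureCounts 1.6.0 on sacCer3, per the file headers. The recorded command sets no strand, pair or multiple-overlap option, so reads touching several features were left out. Bowtie2 is named in the submitters' processing notes, with no version, and alignment names in the file headers carry terms for duplicate marking. The authors also deposited DESeq2 log2 fold changes and adjusted p-values per treatment. The deposited counts give feature lengths, used for CPM per kb.

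Counts were summed over the 2 libraries of a culture, which were not alike within counting noise, and the 22 cultures were fitted together, with group means, in edgeR 4.0.16 in R 4.3.3 (filterByExpr, minimum count 10 and total 15; TMM; robust quasi-likelihood F test; Benjamini-Hochberg over 6344 genes, threshold 0.05). The common biological coefficient of variation was 0.156. Intervals at 95% use 11 residual plus prior degrees of freedom (median 5.49). Standard errors are the log2 fold change over the root of F. DESeq2 1.42.0 was an alternative. Of 6692 features, 6008 matched RefSeq locus tags and 6000 of these had equal coordinates.

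The 9 genes and the gene lists were chosen with earlier results of these data known. From each list, up to 2 called genes per direction with the smallest p are named per comparison. CLB1 and CLB2 among G2-M genes are named by the same rule. SWI4 and CLN3 among M-G1 genes are named also where uncalled, as members that differed from the rest of the list. The genes most like the ring genes are those with the highest Pearson r among 4926 named genes of at least 10 CPM.

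Other alternatives were DESeq2 size factors, no count filter, 1 technical replicate, the compared groups alone, a replicate block and leaving out each culture.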

Additional observations from a re-analysis of the deposited data

Results flagged for a closer look

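Responses of the same gene differed between treatments in 4 results. The MCM6 response in DOX exceeded that in MTX by 0.61 on the log2 scale, the MCM7 response in DOX minus that in MTX was -0.71, and the TAH11 response in DOX exceeded that in MTX by 1.18, each by an interaction contrast in edgeR. These contrasts were called for 21.3% of all genes. For MCM6 and TAH11, both MTX cultures lay below both CM cultures, and both falls were called. Both DOX cultures lay above both CD cultures for these 2 genes, but the DOX differences of 0.11 and 0.30 were not called. The cultures of the groups did not overlap for 79.9% of all genes in DOX and 68.4% in MTX. MCM7 also passed the edgeR test of any difference among the 6 responses (adjusted p = 0.0375). The 3 contrasts lost the call in 4, 6 and 7 of 14 alternatives, and the test over 6 responses called 0 to 3 of the 9 genes when 1 culture was left out.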

How the results depend on the processing

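Over the alternatives to the treatment and medium comparisons, 670 of 711 values of single genes kept their side of the threshold, 47 of them with the other sign while uncalled in both, 32 lost a call, 9 gained one and none that was called changed sign. The falls of MCM3, MCM7 and MCM10 in DOX were called in all 11 alternatives. The falls in MTX were lost in 6 of 13 alternatives for MCM3, 3 for MCM6 and 5 for TAH11, and the higher levels in C0 than CD in 6, 5, 4 and 3 of 11 for MCM4, MCM7, CDC6 and TAH11. With DESeq2 the calls over all genes were 359 in HU (226 by edgeR), 318 in CPT (178) and 428 in AD (199). The DESeq2 test over 6 responses called 4 of the 9 genes and 2270 of all genes, and the pairs of responses gave 5 calls. With the culture number as a replicate block, the calls of the 9 genes were 1 in HU (TAH11) and 2 for C0 against CD. There were 4 over the 6 responses and 8 in the pairs. The block is set within each vehicle and its treatments, so C0 against CD then compares fitted levels of culture 1 and not group means. Over all genes the block gave 552 in HU, 1239 in MMS, 537 in CPT, 892 in AD and 2056 in MTX. It gave 1236 for C0 against CD and 2901 over the 6 responses. Without it there were 683 in MMS, 1259 in MTX, 1274 for C0 against CD and 1572 over the 6 responses. Equal numbers were not shown to pair the cultures: the deviations of equally numbered cultures correlated at 0.71 for CA and AD, 0.49 for CC and CPT, 0.34 for C0 and HU, 0.16 for CD and DOX, 0.06 for C0 and MMS and -0.24 for CM and MTX. Crossing the numbers of CM and MTX, chosen after seeing the data, gave 2278 calls. With technical replicate 1 alone CPT had 349 and AD 315. With technical replicate 2 alone HU had 86, MMS 401, CPT 52, AD 17, MTX 754, C0 against CD 430 and the 6 responses 610, and of the 9 genes 0 were called in MTX, 1 for C0 against CD, 0 over the 6 responses and 1 in the pairs. With the compared groups alone the calls over all genes were 331 in HU, 29 in CPT, 0 in AD, 3702 in DOX and 2261 in MTX. Of the 9 genes 1 was then called in HU (TAH11), 5 in DOX and 4 in MTX. In MTX CDC6 joined as higher, as it did with the replicate block.

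Leaving out 1 culture at a time, the 9 genes gave 3 calls in DOX each time, 0 in HU, MMS, CPT and AD, 0 to 1 in MTX, 0 to 5 for C0 against CD, 0 to 3 over the 6 responses and 0 to 5 in the pairs. Over all genes the range was 1722 to 1859 calls for DOX, 513 to 739 for MTX, 302 to 517 for MMS, 61 to 111 for HU, 51 to 279 for CPT, 10 to 243 for AD, 219 to 1332 for C0 against CD and 972 to 1844 over the 6 responses. A group then has 1 culture, assumed to vary like the others. The cause of these differences was not tested. With 2 cultures a group, an uncalled gene may have changed by any value inside its interval.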

Other observations

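Across the 22 cultures, the genes whose log2 CPM most followed the mean of MCM2 to MCM7 were HST4 (Pearson r = 0.917, Spearman rho = 0.916), a histone deacetylase gene, UBP8 (0.887 and 0.925), MRX12 (0.874 and 0.870), RTT10 (0.871 and 0.892) and CAX4 (0.870 and 0.869). These are descriptions over cultures that share media, vehicles and library preparation. Of the ring genes themselves, MCM3 followed the mean at 0.904 and MCM6 at 0.208. Each ring gene is part of that mean, so its r is not comparable with those of other genes. CDC6, TAH11 and MCM10, which are not part of the mean, followed it at 0.706, 0.643 and 0.288.

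Libraries of the same culture differed by more than counting noise. The chi-square per degree of freedom between the 2 libraries of a culture was 3.57 to 64.8 (median 12.8 over 22 pairs), against 12.3 to 94.3 (median 30.8) between libraries of different cultures of a group. The highest pair was that of CM culture 2, where the description of 1 library gives another technical number than its title.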
